A study of Rattus norvegicus with 16 samples.

Results

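The steroid and retinoid oxidoreductases of liver are the enzymes that add or remove hydrogen at the alcohol and ketone groups of steroids and retinoids. They were examined in livers of male obese Zucker rats fed a casein (CAS) or a soy protein isolate (SPI) diet. The members were taken by gene symbol, as the aldo-keto reductases (Akr1), the hydroxysteroid dehydrogenases (Hsd), the retinol dehydrogenases (Rdh), the SDR-numbered and DHRS short-chain dehydrogenases, the steroid 5α-reductases (Srd5a) and the retinaldehyde dehydrogenases (Aldh1a). Of 45 matching symbols, 3 bile acid or aldehyde enzymes (Akr1a1, Akr1d1 and Hsd3b7) were left out by name and 1, Rdh12, had a mean below 5. This left 41 genes of the 9645 in the table. The rule itself used no diet difference, but the families were chosen with earlier results of these data known.

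Both groups held 8 rats, and each rat gave 1 liver library, named by diet and number (CAS 1, SPI 1). Every rat was an obese male that had eaten its diet ad libitum for 16 weeks from a young age, after random assignment. The CAS diet was the control, and the SPI was a high-isoflavone preparation, so protein source and isoflavones cannot be told apart. The obese Zucker rat is obese through a defective leptin receptor, which both groups share. The comparison asks which hepatic transcripts differed with the dietary protein.

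Steroid hormones are switched on and off by these enzymes, which set the oxidation state at defined carbons of the ring system. AKR1C and HSD enzymes act at the hydroxyl and ketone groups, and 5α-reductases remove a double bond of the first ring, as in the step from testosterone to dihydrotestosterone. Retinol is oxidised to retinaldehyde by short-chain dehydrogenases and then irreversibly to retinoic acid by the ALDH1A enzymes, while DHRS3, DHRS4 and some RDH enzymes run the first step backwards. Liver is a main site of androgen and glucocorticoid metabolism and of vitamin A storage. Several family members have other main substrates, such as fatty acyl chains, in spite of the hydroxysteroid dehydrogenase name.

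Of the 41 symbols, 39 were symbols of the RefSeq table (GRCr8), 1 was an older name in it (Akr1cl, there Akr1c15) and 1, Aldh1a7, was named only. In the annotation used there, chromosome 17 carries Akr1e2, Akr1c2, Akr1c1, Akr1c13, Akr1c3, Akr1c14 and Akr1c15 in this order, with 2 other AKR1C-type genes between Akr1c1 and Akr1c13 and 2 between Akr1c13 and Akr1c3. Rdh16 and Rdh7 lie on chromosome 7 with 1 gene, Rdh9, between them, and Akr1b1 and Akr1b8 are neighbours on chromosome 4. Close copies such as these may share reads, so the split of counts between them is uncertain. Older names in the table tie Akr1c14 to Akr1c9 (the rat 3α-hydroxysteroid dehydrogenase) and Akr1c3 to Akr1c18 (the 20α-hydroxysteroid dehydrogenase that inactivates progesterone), so rat Akr1c3 should not be read as the human enzyme of that symbol.

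The 250 bases before the start of 5 genes are shown, because these are the 4 genes that passed the test and Srd5a1, the next by p. All are read 5′ to 3′ on the gene's strand in the RefSeq build GRCr8, with motif matches on either strand in capitals.
Akr1c3, chr17:71020634-71020883, plus strand: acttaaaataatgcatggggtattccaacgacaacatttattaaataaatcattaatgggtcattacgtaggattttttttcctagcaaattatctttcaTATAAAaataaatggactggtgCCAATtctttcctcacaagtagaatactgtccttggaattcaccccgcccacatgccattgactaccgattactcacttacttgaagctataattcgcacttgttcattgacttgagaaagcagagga
Akr1c14, chr17:71083185-71083434, minus strand: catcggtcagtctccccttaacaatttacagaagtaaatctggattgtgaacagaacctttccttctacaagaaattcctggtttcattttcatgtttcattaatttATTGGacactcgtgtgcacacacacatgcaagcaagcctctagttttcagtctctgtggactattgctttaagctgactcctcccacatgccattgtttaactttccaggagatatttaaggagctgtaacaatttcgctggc
Hsd17b12, chr3:100568899-100569148, minus strand: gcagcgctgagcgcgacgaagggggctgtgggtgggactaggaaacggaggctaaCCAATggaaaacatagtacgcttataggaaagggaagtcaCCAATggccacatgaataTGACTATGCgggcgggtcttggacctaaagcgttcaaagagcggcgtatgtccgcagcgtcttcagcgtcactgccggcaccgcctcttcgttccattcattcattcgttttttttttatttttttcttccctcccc
Srd5a1, chr1:35514664-35514913, plus strand: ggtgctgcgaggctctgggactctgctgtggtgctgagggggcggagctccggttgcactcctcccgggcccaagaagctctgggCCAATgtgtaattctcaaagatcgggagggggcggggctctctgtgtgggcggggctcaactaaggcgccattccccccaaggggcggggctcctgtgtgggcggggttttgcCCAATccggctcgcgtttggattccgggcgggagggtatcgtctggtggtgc
Sdr16c6, chr5:21916289-21916538, minus strand: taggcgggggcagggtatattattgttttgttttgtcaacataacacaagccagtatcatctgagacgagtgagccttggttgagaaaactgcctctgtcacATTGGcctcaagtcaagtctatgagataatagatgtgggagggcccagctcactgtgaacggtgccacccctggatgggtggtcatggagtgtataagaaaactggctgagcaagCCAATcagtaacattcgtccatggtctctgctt
These windows were searched on both strands for the TATA box (TATAAA), the CCAAT box, an HNF4-type site (CAAAGTCCA), short sites of HNF1 (GTTAAT), of nuclear receptors (AGGTCA) and of the glucocorticoid receptor (AGAACA), the core of AHR sites (GCGTG) and that of antioxidant response elements (TGACNNNGC). No 2 of the matches shown overlap. CCAAT, read ATTGG on the opposite strand, was found in each of the 5. It was present in 14 of 27 member promoters that the table holds (51.9%) and in 34.0% of 33469 promoters of the same length. The TATA box letters stood before Akr1c3 alone of the 5 (12.9% of all promoters), ending 145 bases upstream of the start. The antioxidant core stood before Hsd17b12 alone of the 5 (10.1% of all promoters). A match is a string of letters in this window and not evidence of binding.

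Akr1c3, Akr1c14 and Hsd17b12 were higher in SPI-fed rats, and the short-chain dehydrogenase Sdr16c6 was lower. Levels are given as normalised read counts, the reads of a gene divided by 1 size factor per library, which are not corrected for transcript length and so are compared between diets and not between genes. The test, called the main limma fit below, was limma on all libraries with diet alone. It used quantile-normalised log2(count + 1), with adjustment over 8004 genes that had a count of at least 10 in at least 8 libraries. Fold changes are SPI minus CAS on that log2 scale, which understates changes of low genes.

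Among the 41 genes, 38 passed that filter on low counts. At an adjusted p under 0.05 from limma, 3 of the 38 (7.89%) were higher, against 1.97% of all genes tested, and 1 (2.63%) was lower, against 2.9% of all genes. On the counts as deposited, before quantile normalisation, 7 of 38 (18.4%) were higher against 2.69% of all genes, and 1 was lower against 2.82%. The median log2 fold change of the 38 was 0.10 beside 0.01 for all genes on the quantile-normalised scale, and 0.18 beside -0.00 on the deposited scale. The 38 were also more abundant, with a median count of 453 beside 132 for all genes tested. Among the 38, 23 fold changes were above 0 and 15 below. The 9 genes with a mean count of at least 5000 had a median of 0.16 on the former scale and 0.35 on the latter, so the size of the difference in these abundant genes depended on the scale. The libraries held 14901365 to 21632979 reads.

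**Figure D1:**
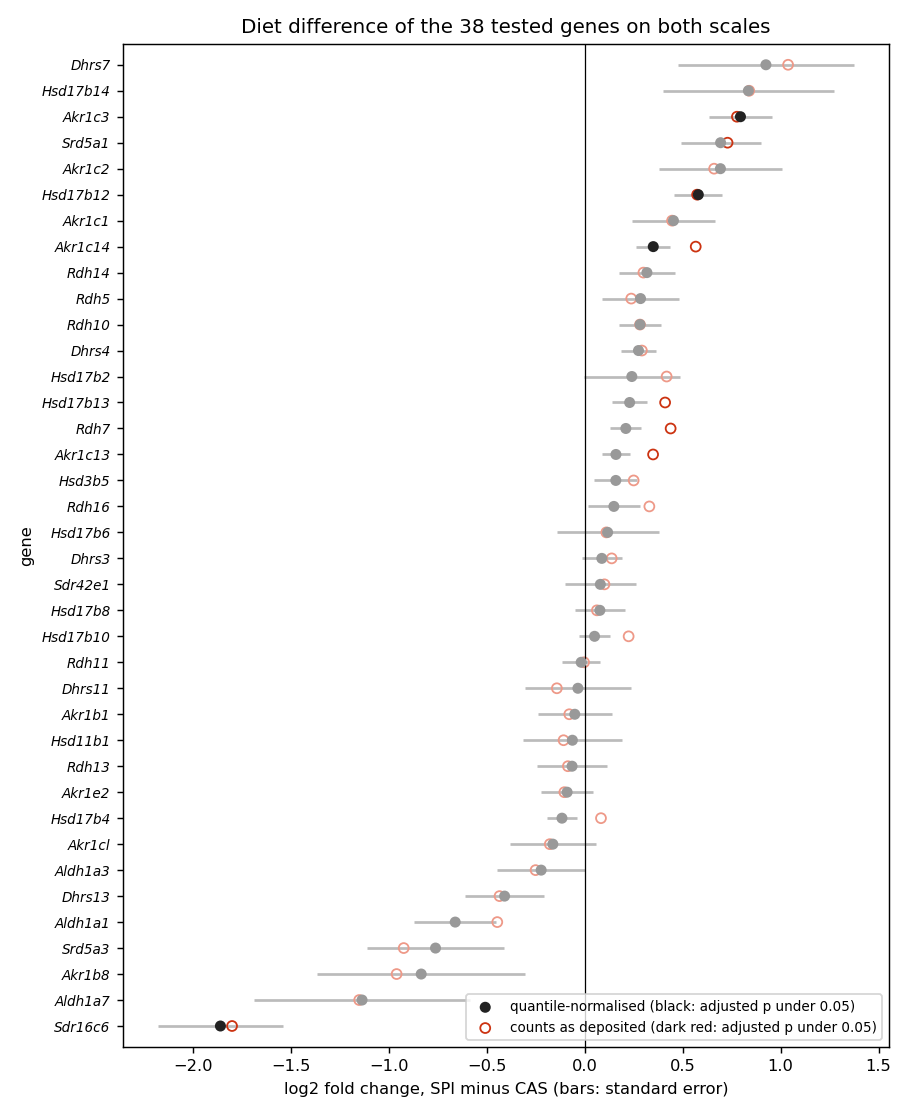
Log2 fold change (x axis, SPI minus CAS) of the 38 tested genes (y axis) on the quantile-normalised scale (filled, with the standard error) and on the counts as deposited (open rings). Filled points are black for the 4 genes with an adjusted p under 0.05, and the rings lie to the right of the filled points for abundant genes such as Akr1c14, Rdh7 and Akr1c13.

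Liver was the labelled tissue, and 8 hepatocyte markers of the 11 listed were in the table, with summed counts of 4539270 to 6769530 in CAS-fed and 4888860 to 7053050 in SPI-fed rats. None of the 8 was called by limma on the quantile-normalised scale (1 at an unadjusted p under 0.05), and edgeR and DESeq2 each called 1. Their median log2 fold change was 0.0014 on that scale and 0.19 on the deposited scale, beside 0.10 and 0.18 for the 38 genes. On the deposited scale 1 marker, Apoh, was called higher (0.41, limma adjusted p = 0.00466). Of the stellate cell and fibroblast markers, which belong to the cells that store retinyl esters, 0 of 10 tested were called by limma, edgeR or DESeq2 and 6 had an unadjusted p under 0.05 in limma (5 of them lower), with a median log2 fold change of -0.68 and sums of 4077 to 6494 in CAS-fed and 3587 to 6245 in SPI-fed rats. Their part in the differences below was not tested. Macrophage markers gave a median of -0.09 and sinusoidal endothelial markers 0.16. The main limma fit called 0 of 10 and 0 of 8 of them, with 3 and 1 at an unadjusted p under 0.05. edgeR called 1 and 0, and DESeq2 called 2 and 0. In such bulk tissue, fewer cells of a type and less RNA per cell cannot be told apart.

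Of the 6 AKR1C genes, 2 were higher and none was lower, where 1.97% of all genes tested were higher and 2.9% lower. These enzymes reduce 3-, 17- and 20-ketosteroids. Of the 6 fold changes 5 were above 0, and the group median was 0.40 on the quantile-normalised scale and 0.51 on the deposited scale. The summed count of the family ran from 22016 (median 26014) to 29475 in CAS-fed rats and from 32292 (median 33762) to 41557 in SPI-fed rats. On these deposited counts no SPI-fed rat had a sum as low as any CAS-fed rat, and the sum is carried by Akr1c14 and Akr1c13. The sum was not examined on the quantile-normalised scale. How often sums of other gene families separate in this way was not worked out.

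Akr1c14, the 3α-hydroxysteroid dehydrogenase that reduces dihydrotestosterone, had counts of 11053 to 17317 (median 13704) in CAS-fed rats and 17567 to 23514 (median 19112) in SPI-fed rats. On these counts the diet groups did not overlap. It was the only 1 of the 38 genes (2.63%) with all SPI-fed rats above the CAS range, against 0.35% of all genes tested, and 0 of 38 had them all below it, against 0.55%. On the quantile-normalised scale its groups overlapped, where 0.237% of all genes separated upwards. The means were 13773 ± 2192 (SD, n = 8) and 20312 ± 2598 (SD, n = 8), a ratio of 1.47. Its log2 fold change was 0.35 (standard error, SE, 0.087, limma adjusted p = 0.0221), and 0.57 on the deposited scale (limma adjusted p = 0.00170). This call was lost without CAS 1 (limma adjusted p = 0.0504), CAS 3 (0.0506), CAS 5 (0.0530) or SPI 6 (0.0519), by the same test. The study picked it from these libraries, in a network drawn under the human symbol, so the test is not independent evidence for it.

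Akr1c3, the progesterone-inactivating 20α-enzyme, was counted at 183 to 420 (median 314) in CAS-fed rats and 398 to 629 (median 526) in SPI-fed rats. All SPI-fed rats but 1 exceeded the highest CAS-fed rat, and the lowest, SPI 7, lay under CAS 4 (420) and CAS 6 (413). Its mean was 313 ± 90.4 (SD, n = 8) on CAS and 522 ± 84.3 (SD, n = 8) on SPI, a ratio of 1.67. The log2 fold change was 0.79 (SE 0.16, limma adjusted p = 0.00551). In the labels, number 2 of both diets carries the lane code of number 7, and the sheet numbers of 2 and 8 do not follow the order of the rest. Without these libraries it was 0.64 with a limma adjusted p of 0.0644.

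The other AKR1C genes did not pass on the quantile-normalised scale. Akr1c13 ranged from 8621 to 13272 (median 11018) on CAS and from 12918 to 16710 (median 13522) on SPI. Only CAS 7 reached the range of the SPI-fed rats. The RefSeq table gives Akr1c12 and Akr1c13 each as an older name of the other, so which of these genes the row counts is uncertain. The fold change of the row was 0.16 (limma adjusted p = 0.235) after quantile normalisation and 0.35 (limma adjusted p = 0.0194) on the counts as deposited. Akr1c1, called 17β-hydroxysteroid dehydrogenase type 5 in mouse, had medians of 269 and 360, with 6 SPI-fed rats above the CAS range and 2 within it, and a log2 fold change of 0.45 (limma adjusted p = 0.248). Akr1c2 had a fold change of 0.69 (limma adjusted p = 0.240) with wide ranges of 52.6 to 240 and 87.0 to 316. Akr1cl had a fold change of -0.16 (limma adjusted p = 0.741).

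**Figure D2:**
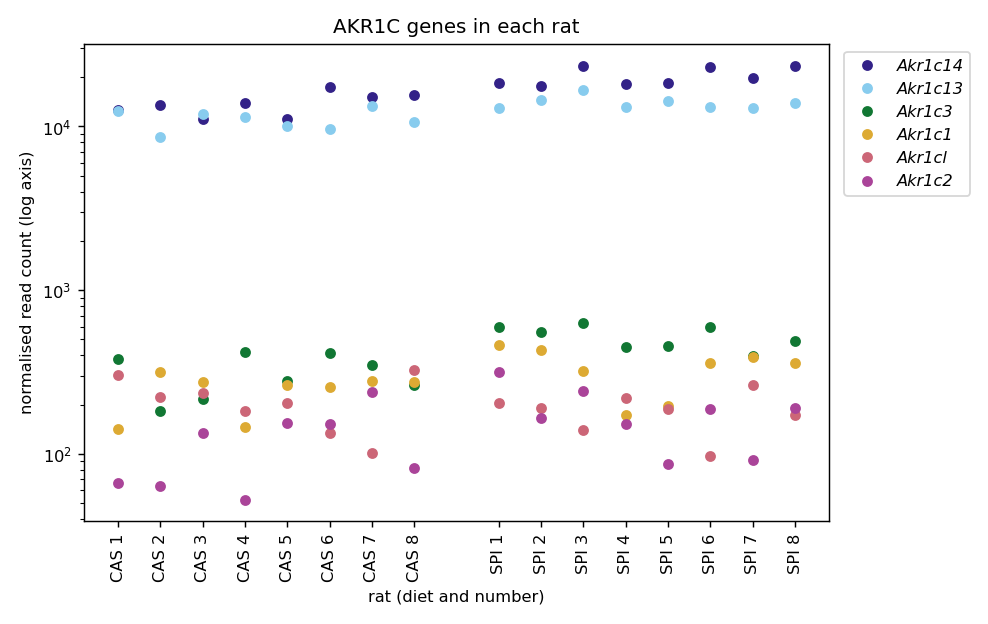
Normalised read counts (y axis, log scale) of the 6 AKR1C genes in each rat (x axis), CAS 1 to 8 on the left and SPI 1 to 8 on the right. Akr1c14 sits at 11053 to 17317 in CAS-fed and 17567 to 23514 in SPI-fed rats, while Akr1cl ranges from 102 to 327 in CAS-fed and from 96.7 to 265 in SPI-fed rats.

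None of the 3 aldose reductase-like genes passed in limma, edgeR or DESeq2, and 0 had an unadjusted p under 0.05 in limma. Akr1b1 is aldose reductase itself, which makes sorbitol from glucose, and its log2 fold change was -0.05 (limma adjusted p = 0.919). Akr1e2, which reduces anhydrofructose, had -0.09 (limma adjusted p = 0.769). Akr1b8 was scarce, at 8.18 to 25.5 on CAS and 1.06 to 24.3 on SPI, with -0.83 (SE 0.53, limma adjusted p = 0.415).

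In the hydroxysteroid dehydrogenase family, 1 of 10 tested genes passed, the fatty acid enzyme Hsd17b12, which was higher. Of all genes tested, 1.97% were higher and 2.9% lower. Hsd17b12 reduces 3-ketoacyl-CoA in the elongation of very long chain fatty acids. Its counts ran from 195 to 315 (median 268) in CAS-fed rats and from 267 to 418 (median 389) in SPI-fed rats. SPI 2, at 267, lay within the CAS range, and the other 7 SPI-fed rats, at 373 or more, exceeded it. The means were 255 ± 41.7 (SD, n = 8) and 378 ± 48.2 (SD, n = 8), and the log2 fold change was 0.58 (SE 0.12, limma adjusted p = 0.00719). It kept its call in every fit with other settings and in each of the 16 fits that left out 1 library.

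Among the 8 tested HSD17B genes, 7 had positive fold changes, with a group median of 0.17, and all 8 were positive on the deposited scale. Hsd17b13, a protein of lipid droplets in hepatocytes that oxidises retinol in man, was counted at 5726 to 9461 (median 7463) on CAS and 8322 to 11853 (median 9758) on SPI. Its CAS-fed rats were split, with CAS 1, CAS 4 and CAS 7 at 9162 or more and the other 5 at 7834 or less. The fold change was 0.23 (limma adjusted p = 0.160), and 0.41 (limma adjusted p = 0.0321) on the deposited scale. Hsd17b4, the peroxisomal multifunctional enzyme of β-oxidation, was even between CAS-fed rats, at 15173 to 17277 on CAS and 14717 to 19429 on SPI. It had -0.12 (limma adjusted p = 0.440) on the quantile-normalised scale and 0.08 (limma adjusted p = 0.559) on the deposited scale, so its sign depended on the scale.

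Hsd17b2, which oxidises estradiol and testosterone to the weaker ketones, spanned 3869 to 11710 on CAS and 5002 to 16210 on SPI, with a log2 fold change of 0.24 (SE 0.25, limma adjusted p = 0.649), which moved to 0.11 without CAS 5, 0.16 without CAS 6 and 0.38 without SPI 7. Hsd17b14 had 0.84 (SE 0.44, limma adjusted p = 0.304). CAS 8 had a count of 2.48 beside 70.2 in the highest CAS-fed rat, and the fold change was 0.42 without CAS 8 and 0.27 without the libraries numbered 2 and 8. Hsd17b10, a mitochondrial enzyme of isoleucine breakdown, had 0.05, Hsd17b8, of mitochondrial fatty acid synthesis, had 0.08, and Hsd17b6, which oxidises androstanediol, had 0.12. None of these 3 passed the test (limma adjusted p = 0.784, 0.797 and 0.854).

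The scarcest of the family, Hsd17b1, makes estradiol from estrone and was under the filter, so it was not tested. It lay at 2.42 to 23.5 in CAS-fed rats and 0 to 9.61 in SPI-fed rats. Hsd3b5, a 3-ketosteroid reductase of male liver in mouse, had a fold change of 0.16 (limma adjusted p = 0.457), from 2281 to 4128 on CAS and 2665 to 4559 on SPI. Hsd11b1, which regenerates active corticosterone from its inert ketone, had 56.8 to 154 on CAS and 50.1 to 200.7 on SPI, with a fold change of -0.06 (SE 0.25, limma adjusted p = 0.927).

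The 5α-reductases differed in sign, and neither passed in the main limma fit, though both had an unadjusted p under 0.05 there. Srd5a1 makes dihydrotestosterone and also starts the breakdown of corticosterone and progesterone. It was counted at 749 to 1450 (median 1088) on CAS and 1120 to 2997 (median 1730) on SPI, with a mean ratio of 1.71. In SPI-fed rats, 5 exceeded the highest CAS-fed rat, while SPI 2, SPI 5 and SPI 7 lay within the CAS range. Its log2 fold change was 0.69 (SE 0.20, limma adjusted p = 0.0597), and the adjusted p was 0.0428 on the deposited scale, 0.0340 in edgeR and 0.0451 with the replicate number as a block. Without CAS 6, SPI 5 or SPI 7 it was 0.0485, 0.0313 or 0.0318. Srd5a3, which reduces polyprenol for protein glycosylation, was at 8.14 to 47.6 on CAS and 6.39 to 33.6 on SPI, with -0.76 (SE 0.35, limma adjusted p = 0.238, and 0.0492 without CAS 7).

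**Figure D3:**
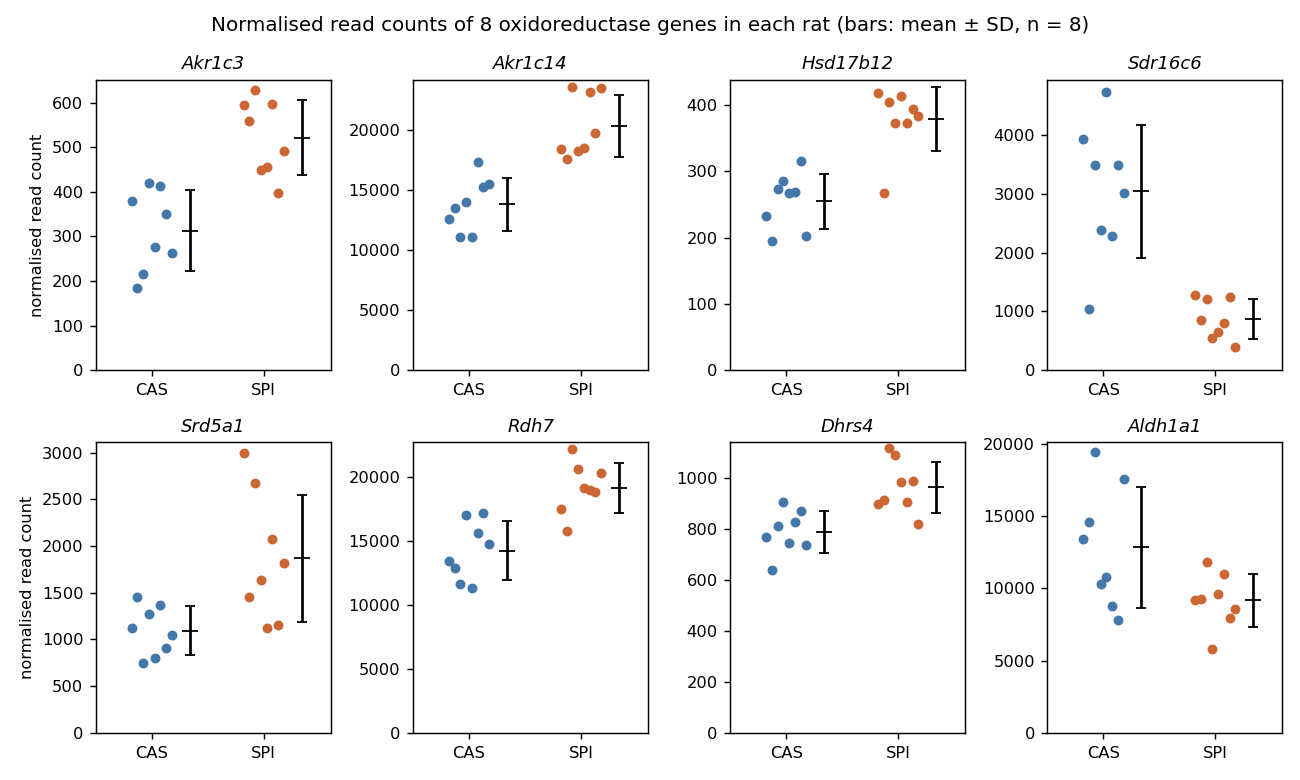
Normalised read counts (y axis, from 0) of 8 genes in each CAS-fed and SPI-fed rat (points), with the mean and SD of 8 rats beside them. The Akr1c14 points of SPI-fed rats start at 17567, above the highest CAS-fed rat at 17317, whereas those of Sdr16c6 fall from a CAS median of 3243 to an SPI median of 828 with some overlap.

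Sdr16c6 gave the most negative fold change of the 38. It is a short-chain dehydrogenase of the family that, in mouse, oxidises retinol to retinaldehyde. Counts were 1041 to 4723 (median 3243) in CAS-fed rats and 389 to 1274 (median 828) in SPI-fed rats. CAS 2, at 1041, was the only CAS-fed rat within the SPI range, and the next lowest was CAS 6 at 2286. The CAS mean was 3042 ± 1135 (SD, n = 8) and the SPI mean 869 ± 340 (SD, n = 8), so the former was 3.50 times the latter. Its log2 fold change was -1.86 (SE 0.32, limma adjusted p = 0.00359), and -1.93 (limma adjusted p = 0.0106) without the libraries numbered 2 and 8. It passed in each of the 16 fits without 1 library. The study chose it for PCR from these same livers because of its difference, so this test is not independent evidence. Its PCR also put Sdr16c6 lower in SPI-fed rats, and its own RNAseq fold difference was smaller than the ratio above. Sdr42e1, the other SDR-numbered gene, had a fold change of 0.08 (limma adjusted p = 0.858).

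The main limma fit called none of the 7 retinol dehydrogenases (3 at an unadjusted p under 0.05), and edgeR and DESeq2 each called 1, Rdh7. Of their fold changes 5 were above 0, with a median of 0.21. Rdh7, a microsomal enzyme of liver that oxidises retinol, was counted at 11316 to 17168 (median 14116) on CAS and 15779 to 22174 (median 19083) on SPI. On these counts 7 SPI-fed rats exceeded the CAS range. Its fold change was 0.21 (SE 0.079, limma adjusted p = 0.135) after quantile normalisation and 0.44 (limma adjusted p = 0.00881) on the deposited scale. Rdh16, its close relative, had 0.15 (limma adjusted p = 0.585), from 5714 to 11000 on CAS and 7216 to 13134 on SPI.

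Rdh10, the enzyme that starts retinoic acid synthesis in embryos, had a fold change of 0.28 (SE 0.11, limma adjusted p = 0.134) with counts of 581 to 938 and 757 to 1051. Rdh14 had 0.32 (limma adjusted p = 0.221), and CAS 8, at 163, was far below the other CAS-fed rats, which held 272 or more. Rdh11, which reduces retinaldehyde, was close to 0 at -0.02 (SE 0.096, limma adjusted p = 0.944), and 0.0137 with upper-quartile scaling. Rdh5, best known from the visual cycle of the eye, had 0.28 (limma adjusted p = 0.458). Rdh13, a mitochondrial enzyme, had -0.06 (limma adjusted p = 0.883) but spread more on SPI (84.3 to 195) than on CAS (121 to 159). Its SPI-fed rats were split by number. SPI 1 to SPI 4, at 84.3, 109, 90.2 and 116, lay below every CAS-fed rat. SPI 5 to SPI 8, at 182, 164, 174 and 195, lay above every CAS-fed rat. What lies behind the split was not tested.

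Of 5 tested DHRS genes none passed in the main limma fit (1 at an unadjusted p under 0.05), 0 in edgeR and 1, Dhrs4, in DESeq2. Dhrs4, a peroxisomal retinaldehyde reductase, lay at 640 to 904 (median 790) on CAS and 820 to 1115 (median 948) on SPI. Of the SPI-fed rats, 6 exceeded the CAS range. The log2 fold change was 0.27 (SE 0.087, limma adjusted p = 0.0731), with an adjusted p of 0.0442 without CAS 4 and 0.0276 in DESeq2. Dhrs3, the retinaldehyde reductase that retinoic acid itself induces, had 0.09 (SE 0.10, limma adjusted p = 0.690) with counts of 1196 to 2015 and 1658 to 2166. Dhrs13 had -0.41 (limma adjusted p = 0.275) and Dhrs11 -0.03 (limma adjusted p = 0.962).

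Dhrs7 varied widely between CAS-fed rats. In CAS 1 to CAS 8 its counts were 1067, 2882, 1968, 4411, 3013, 6862, 7995 and 763, and in SPI-fed rats they were 2834 to 8064 (median 6009). CAS 6 and CAS 7 lay within the upper part of the SPI range, while CAS 1, CAS 3 and CAS 8 lay below every SPI-fed rat. The SD of log2 counts was 1.20 on CAS and 0.45 on SPI, and the fold change was 0.92 (SE 0.45, limma adjusted p = 0.281). Dhrs9, a retinol and 3α-hydroxysteroid dehydrogenase, had the lowest mean of the members at 5.60 and was not tested. It lay at 0 to 17.2 on CAS and 0 to 24.5 on SPI. Rdh12, outside the rule with a mean of 0.491, had reads in 2 libraries only.

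The 3 tested retinaldehyde dehydrogenases, which form retinoic acid, all had negative fold changes. None passed in the main limma fit (1 at an unadjusted p under 0.05), edgeR or DESeq2. Aldh1a1, the abundant hepatic form, was counted at 7809 to 19414 (median 12090) on CAS and 5829 to 11801 (median 9250) on SPI. CAS 1, CAS 2, CAS 3 and CAS 8 lay above every SPI-fed rat and the other 4 within the SPI range. Its log2 fold change was -0.66 (SE 0.21, limma adjusted p = 0.0854) and -0.45 (limma adjusted p = 0.173) on the deposited scale. The adjusted p was 0.0301 with the replicate number as a block, 0.0476 without CAS 6 and 0.0257 without CAS 7. Aldh1a7, a close relative of Aldh1a1, ran from 332 to 1304 (median 545) on CAS and from 25.5 to 677 (median 319) on SPI, with -1.14 (SE 0.55, limma adjusted p = 0.281). Without SPI 7, the library at 25.5, it was -0.67. Aldh1a3 had -0.22 (limma adjusted p = 0.639). Aldh1a2, with normalised counts of 0 to 60.2 per library, was under the filter.

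**Figure D4:**
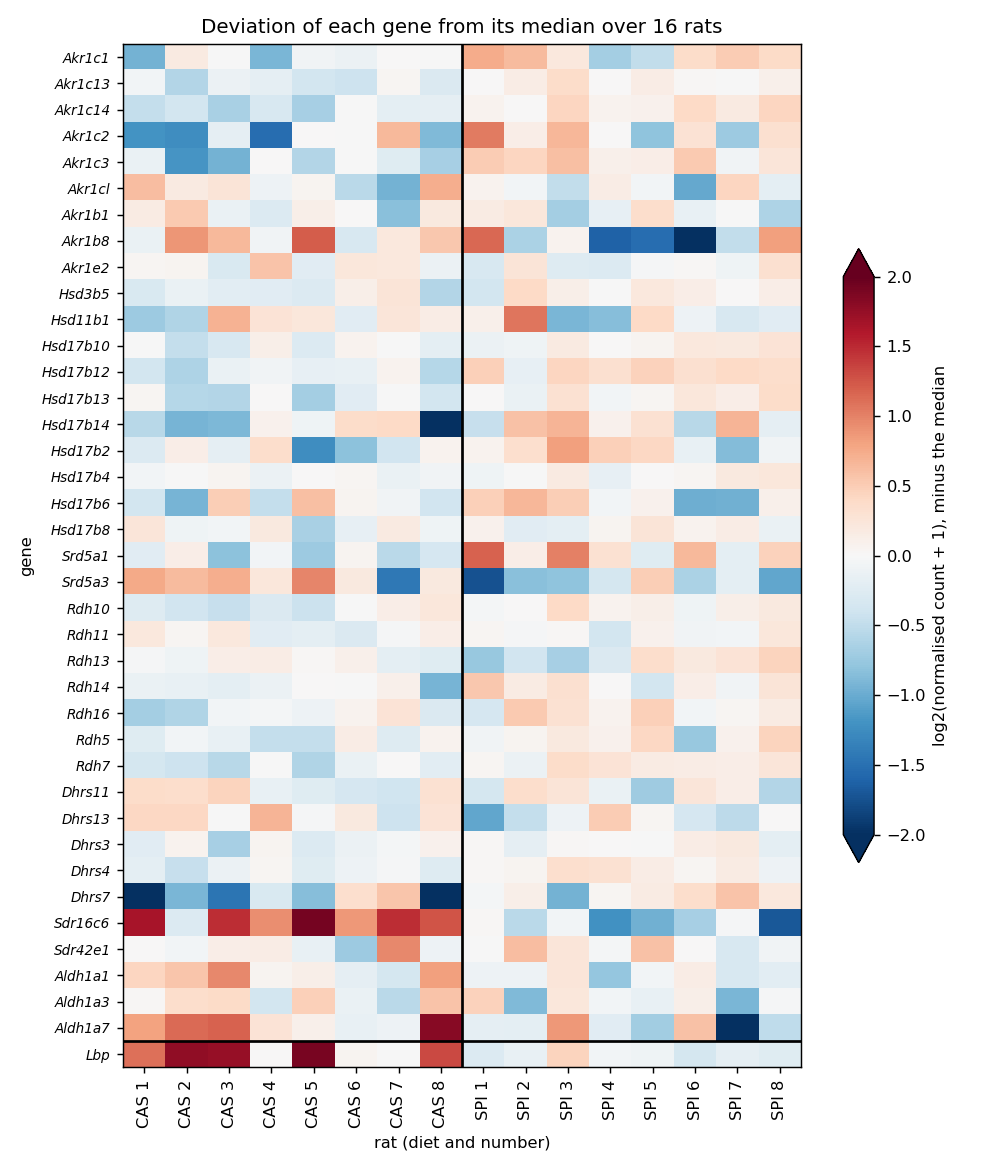
Deviation of log2(normalised count + 1) from the median over the 16 rats (colour, clipped at 2 in either direction) for the 38 tested genes, ordered by role, and for Lbp (bottom row), in each rat (columns). Dhrs7 is lowest in CAS 1 and CAS 8, and Sdr16c6 is high in every CAS-fed rat but CAS 2.

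The CAS-fed rats differed widely among themselves in Lbp, an acute phase protein that binds lipopolysaccharide. Its counts were 5346, 8486, 8319, 2494, 9302, 2572, 2476 and 6221 in CAS 1 to CAS 8, against 1942 to 3387 in SPI-fed rats. In the 3 CAS-fed rats with Lbp within the SPI range (CAS 4, CAS 6 and CAS 7), Dhrs7 was 4411, 6862 and 7995 and Aldh1a1 was 10288, 8762 and 7809. These were the 3 highest CAS values of Dhrs7 and the 3 lowest of Aldh1a1. Rdh7 was 17059, 15666 and 17168 in them, the 3 highest on CAS, and Akr1c3 was 420, 413 and 351 beside 379 in CAS 1. Akr1c14 in them was 13954, 17317 and 15232, with CAS 8 at 15478, and Sdr16c6 was 2383, 2286 and 3481, within the range of the other CAS-fed rats. CAS 4, CAS 6 and CAS 7 also held the 3 highest CAS values of Dhrs4, Hsd17b10, Hsd17b14, Rdh16 and Akr1e2. They held the 3 lowest CAS values of Aldh1a3 and Akr1cl. Beyond these and Dhrs7, Aldh1a1 and Rdh7, no other tested member showed either order. The share of all genes ordered this way was not worked out. Whether the acute phase state has a part in the diet differences was not tested.

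Processing moved some calls, described here without the fits that leave out 1 library. The same 4 genes that passed on the quantile-normalised scale passed with the counts as deposited, upper-quartile scaling, both other pseudocounts, both other filters, edgeR, DESeq2, the replicate block and a weight per library. Rdh7, Hsd17b13 and Akr1c13 were called higher by the 4 fits without quantile normalisation (deposited counts, upper quartile, edgeR and DESeq2) and by no other. Srd5a1 was called higher in those 4, with the filter at 50 and with the block. Dhrs4 was called with upper-quartile scaling and DESeq2 only, and Aldh1a1 with the block only.

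**Figure D5:**
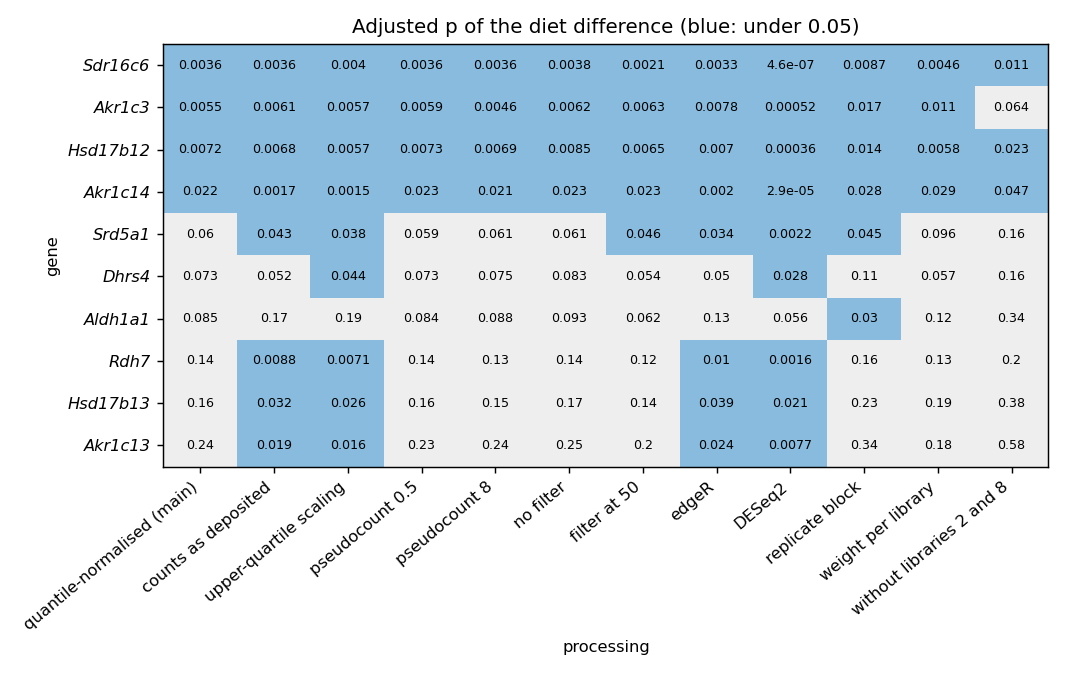
Adjusted p (numbers, blue where under 0.05) of the diet difference for the 10 genes (y axis) called in at least 1 of the 12 fits shown (x axis). Sdr16c6, Hsd17b12 and Akr1c14 are blue throughout, and Akr1c3 is blue except without the libraries numbered 2 and 8 (0.0644).

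Among 22 tested genes of retinoid handling outside these families, SPI-fed rats had 1 higher and 2 lower. Of all genes tested, 1.97% were higher and 2.9% lower. Aox1, an oxidase that can turn retinaldehyde into retinoic acid, rose by a log2 fold change of 0.64 (limma adjusted p = 0.00408). Rarb, a retinoic acid receptor and itself a retinoic acid target, was lower at -1.10 (limma adjusted p = 0.0262), and Lpl, which can hydrolyse the retinyl esters of chylomicrons, at -1.39 (limma adjusted p = 0.0295). The Rarb call was lost without CAS 1 (0.0633), CAS 5 (0.0516) or SPI 5 (0.0519), and that of Lpl without CAS 1 (0.0644), CAS 2 (0.0581), CAS 3 (0.0662) or CAS 5 (0.0640). Both were lost with the block (0.0541 and 0.0928) and without the libraries numbered 2 and 8 (0.0827 and 0.108). Of 5 retinoic acid target genes, Rarb was the 1 called.

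Where 1.97% of all genes tested were higher and 2.9% lower, steroid conjugation, steroid receptors and cofactors had 4 higher and none lower of 21. The 4 were Sult2a1, the sulfotransferase of hydroxysteroids (log2 fold change 3.52, limma adjusted p = 0.00298), Cyp3a9 (2.23, limma adjusted p = 0.00321), Cyp7b1, which hydroxylates oxysterols and dehydroepiandrosterone (1.04, limma adjusted p = 0.00253), and Ugt2b1, a glucuronosyltransferase (0.53, limma adjusted p = 0.00644). Cyp3a9 and Cyp7b1 lost their call without the libraries numbered 2 and 8 (0.0604 and 0.0623). The study also chose Sult2a1 on these livers, and its PCR put it higher in SPI-fed rats. In the sex-dimorphic and growth hormone dependent list, 3 of 20 were higher and 1, Cyp2c12, was lower (-1.66, limma adjusted p = 0.00331). The higher ones were Sult2a1, Cyp3a9 and LOC259244 (2.04, limma adjusted p = 0.0407). LOC259244 lost its call in edgeR (0.0737), with the block (0.0684), without the libraries numbered 2 and 8 (0.148) and in every fit that left out 1 library except those without CAS 4, CAS 6 or CAS 7.

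Against 1.97% of all genes tested higher and 2.9% lower, 1 of 17 genes of glucocorticoid action was higher, the metal-binding Mt2A (2.44, limma adjusted p = 0.0379). Its adjusted p was 0.0891 in edgeR and 0.139 without the libraries numbered 2 and 8, and of the 16 fits without 1 library it was called only without CAS 2, CAS 3, CAS 5 or SPI 7. Of 18 NRF2 target genes the main limma fit called none (6 at an unadjusted p under 0.05, 4 of them lower), edgeR 0 and DESeq2 2. Counts of higher and lower genes were 2 and 1 of 15 CAR and PXR targets, 1 and 0 of 3 AHR targets and 3 and 0 of 12 pericentral genes. These lists share genes. The higher CAR and PXR targets were Cyp3a9 and Ugt2b1, counted above under steroid conjugation. The higher AHR target, Cyp1a2, was also 1 of the 3 higher pericentral genes. Of 13 periportal genes 1 was higher and 2 were lower. On the deposited scale 4 were higher and 1 was lower, against 2.69% and 2.82% of all genes tested. On the quantile-normalised scale the higher gene was Hal (1.29, limma adjusted p = 0.00724), and 1 of the lower was Cdh1 (-0.76, limma adjusted p = 0.00249). Both were called on the deposited scale and in each of the 16 fits without 1 library. Without the libraries numbered 2 and 8, Cdh1 kept its call (0.0372) and Hal lost it (0.0918). The other lower gene was Arg1, a urea cycle enzyme (-0.34, limma adjusted p = 0.0275), which had -0.03 (limma adjusted p = 0.910) on the deposited scale. It also lost its call with upper-quartile scaling, edgeR, DESeq2 and the block (0.0615), without the libraries numbered 2 and 8 (0.146), and without CAS 1, CAS 2, CAS 8, SPI 1 or SPI 5 (up to 0.0581).

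Of 20 acute phase proteins 1 was higher, Fgg (0.30, limma adjusted p = 0.0367), and 1 was lower, Lbp (-1.23, limma adjusted p = 0.0429), with 4 higher and 1 lower on the deposited scale. Of all genes tested, 1.97% were higher and 2.9% lower, and on the deposited scale 2.69% and 2.82%. Leaving out 1 library, Lbp was called only without CAS 4, CAS 6 or CAS 7, and Fgg only without CAS 1, CAS 3, CAS 6, CAS 7, SPI 2 or SPI 7. Both lost their call without the libraries numbered 2 and 8 (0.259 and 0.147), Fgg also with the block (0.0739) and Lbp with a weight per library (0.0746). On the deposited scale the counts of higher and lower genes were 6 and 1 in the sex-dimorphic list, 2 and 0 for glucocorticoid action, 5 and 0 for steroid conjugation, 3 and 2 for retinoid handling and 3 and 1 for CAR and PXR targets.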

How the data were processed

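RNA of 16 livers was sequenced on an Illumina HiSeq. The signal values, deposited as 1 column per rat, are reads per gene over a size factor of that library, as DESeq2 makes them, and give whole reads within a tolerance of 0.05. The submitters' notes name Rnor_6.0, DESeq2 and FastQC, whereas the study's methods name CLC Genomics Workbench, an older assembly and quantile-normalised log2 RPM, and the sources also disagree on read type. The authors' log2 fold changes and standard errors, their test statistic (a score) and their p-values were deposited too and were not used.

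limma 3.58.1 (R 4.3.3, trend and robust, two-sided, Benjamini-Hochberg) was fitted to log2(value + 1), quantile-normalised, over 8004 genes. edgeR 4.0.16 (TMM, quasi-likelihood) and DESeq2 1.42.0 ran on the whole reads as alternatives, beside other scalings, pseudocounts of 0.5 and 8, no filter and a filter at 50, a replicate block, a weight per library (statmod 1.5.0), leaving out the libraries numbered 2 and 8, and leaving out each library. The steps were tested on simulated data. Numbers shared by CAS and SPI libraries share a lane code. After removing diet means, same-numbered libraries correlated at -0.0950 to 0.0682, and 0 of 8 best with its own number.

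The members and gene lists were chosen with earlier results of these data known. Genes were named by rule: those called, those not overlapping between diets, the study's own, the 6 most abundant, the 3 with the smallest p per role group and list, and those next to the mean of 5. The remaining members were named so that each is accounted for.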

Additional observations from a re-analysis of the deposited data

Results flagged for a closer look

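In each of 82 groups of 8 libraries (41 genes in 2 diets), the highest and lowest counts were compared with their nearest neighbour, and 5 groups held 1 library far from the rest. Chance alone flags about 1 in 20 groups. Akr1c13 reached 16710 in SPI 3, with 14415 the next highest SPI-fed rat. Hsd17b12 was 267 in SPI 2, with 373 the next lowest. Rdh14 was 163 in CAS 8, next to 272. Sdr42e1 was 1914 in CAS 7, next to 1091. Dhrs9, under the filter, was 24.5 in SPI 7, next to 10.6.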

How the results depend on the processing

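Compared over 27 alternative settings, 16 of which leave out 1 library, the 4 called genes kept their direction in all of them. The number of members called higher was 3, and it was 7 with values as deposited, 8 with upper-quartile scaling, 7 with edgeR and 8 with DESeq2. It was 2 without the libraries numbered 2 and 8 (Akr1c3 lost) and 2 to 4 without 1 library. The 4 settings with 7 or 8 leave out quantile normalisation, but edgeR and DESeq2 also change the test. The number called lower was 1, and it was 2 with the replicate block and 1 to 3 without 1 library. At an unadjusted p under 0.05 there were 15 members on the quantile-normalised scale, 20 as deposited, 17 in edgeR and 21 in DESeq2. The shares of all genes behind these counts were not worked out, nor those for calls with upper-quartile scaling, edgeR or DESeq2. Such counts therefore have no background to be read against.

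Uncalled genes with fold changes near 0 changed sign in places, and the cause was not tested. Hsd17b4 was 0.0829 as deposited, 0.10 with upper-quartile scaling, 0.0907 in edgeR and 0.0871 in DESeq2. Rdh11 was 0.0137 with upper-quartile scaling. Without the libraries numbered 2 and 8, Akr1b1 was 0.11, Aldh1a3 0.00497, Dhrs11 0.0541, Hsd17b10 -0.0146, Hsd17b6 -0.19 and Sdr42e1 -0.00282. With each library left out in turn, Akr1b1 ranged from -0.16 to 0.0269, Dhrs11 from -0.0937 to 0.0618, Hsd11b1 from -0.23 to 0.0471, Hsd17b8 from -0.0117 to 0.12, Rdh11 from -0.0582 to 0.0321, Rdh13 from -0.14 to 0.0288 and Sdr42e1 from -0.0311 to 0.21. The replicate block added calls for Srd5a1 (limma adjusted p = 0.0451) and Aldh1a1 (limma adjusted p = 0.0301) and changed no other call of a member. Depth limits Akr1b8, Dhrs11, Srd5a3 and the 3 untested genes most.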
